A study of Mus musculus with 6 samples.

Results

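Superoxide dismutases, catalase and the proteins that deliver copper to these enzymes were examined in 1G11-mock and 1G11-SOD3 cells. They are 9 genes, namely *Sod1*, *Sod2*, *Sod3*, *Cat*, *Ccs*, *Atox1*, *Atp7a*, *Atp7b* and *Slc31a1*, taken as every non-control spot whose array annotation names one of them, and they were represented by 10 of the 59305 non-control spots (*Cat* by 2). In all, the annotation gave a symbol for 22257 genes. 1G11 is a mouse endothelial cell line of strain C57BL/6NCrLBR. The 1G11-SOD3 cells overexpress SOD3 and the 1G11-mock cells do not, and both were exposed for 6 h to conditioned medium of N202.1A mammary cancer cells, so that no array shows cells without that medium. Total RNA of 3 independent experiments per line was labeled with Cy3 and hybridized to 6 single-color Agilent arrays. The gene construct of the 1G11-SOD3 line, and whether either line is 1 clone, are not given in the sources used here. Unless stated otherwise, values are log2 intensities after background correction and quantile normalization, differences are 1G11-SOD3 minus 1G11-mock, and "called" means a change of more than 2-fold with an adjusted p under 0.05 in limma.

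Superoxide dismutases convert superoxide to hydrogen peroxide, which catalase then breaks down to water and oxygen. *Sod1* encodes the copper and zinc enzyme of the cytosol, *Sod2* the manganese enzyme of the mitochondrial matrix and *Sod3* the secreted copper and zinc enzyme that binds to the extracellular matrix, where in the vessel wall it protects nitric oxide from superoxide. Copper enters the cell through the importer encoded by *Slc31a1* (CTR1). It is handed to SOD1 by the chaperone CCS, and to the Golgi pumps ATP7A and ATP7B by the chaperone ATOX1. The pumps load copper onto secreted enzymes, SOD3 among them.

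The place of a spot mattered for these genes. Spots in rows 129 to 256 and columns 55 to 109, called the middle of the array here, were dim on the 1G11-mock arrays. There the scanner software rated 20.2% to 30.8% of spots as well above background on the 1G11-mock arrays and 37.3% to 46.6% on the 1G11-SOD3 arrays, against 34.2% to 43.8% over the whole of each of the 6 arrays. Among probes well above background on at least 3 of the 6 arrays, the median difference between the lines was 1.10 in the middle (quartiles 0.51 and 1.88, 2341 probes). Elsewhere it was -0.14 (quartiles -0.44 and 0.19, 18540 probes). In the middle a probe could pass this filter on the 1G11-SOD3 arrays alone, which favors high differences. Over all probes the median was 0.19 in the middle (quartiles -0.05 and 0.74, 6445 probes) and -0.06 elsewhere. The *Sod2* and *Sod3* spots belong to the middle and are reported apart from the other 8. On the slide, row 2 held the 1G11-mock and row 1 the 1G11-SOD3 arrays, so slide row and line cannot be told apart. No spot was saturated.

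The probes are 60 bases long, and most lie near the end of the transcript. The last 30 bases, 5′ to 3′ in the sense of the RNA, are shown for the 3 dismutases. They are also shown for the copper proteins whose probe holds AATAAA or ATTAAA, the letters of polyadenylation signals. Whether these letters act as signals in the transcripts was not tested. The coding probe of *Cat* is shown whole. Capitals mark the letters AATAAA or ATTAAA, searched on the probe strand only.
Sod3: ttgctcATTAAAaacatagcaattcacaac
Sod2: gcactatgactggggtgctgtagtctttat
Sod1: ctaccctcaaaccATTAAActgtaatctga
Ccs: tgtagcctgaacaaATTAAAttgttacttt
Atox1: ttccatgtAATAAAgtcaagctgagtttgt
Slc31a1: gtgttgtgtgcaagaaaacaaAATAAAtat
Cat, coding probe: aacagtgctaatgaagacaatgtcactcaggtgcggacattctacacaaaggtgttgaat
The array annotation, whose build the files do not give, places the whole *Sod3* probe at chr5:52760685-52760744 (plus strand, from base 1752 of the transcript), the *Sod2* probe at chr17:13208074-13208133 (plus strand, base 912) and the *Sod1* probe at chr16:90226509-90226568 (plus strand, base 587). Either motif was present in 5 of the 10 member probes and in 13.7% of all 55681 probes on the array (AATAAA in 10.1%, ATTAAA in 3.95%). The coding *Cat* probe begins at base 1411 and its 60 bases extend over 3343 bases of chromosome 2, so it spans at least 1 intron. The *Sod3* spot reads the transcript near its end, and RNA from the cells' own gene and from an introduced copy that carries these bases cannot be told apart.

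*Sod3*, the gene that the 1G11-SOD3 line overexpresses, was measured in the middle of the array. It read 13.61, 12.66 and 9.86 on 1G11-mock arrays 1, 2 and 3 (replicates in that order here and in what follows) and 16.37, 16.30 and 16.26 on 1G11-SOD3 arrays 1, 2 and 3. The 1G11-SOD3 arrays thus lay close together and all above the 1G11-mock arrays, which were spread widely, with replicate 3 far below the others. The means were 12.04 ± 1.95 and 16.31 ± 0.06 (SD, n = 3 each), a difference of 4.27 (19.3-fold, SE 0.70, 95% confidence interval 2.73 to 5.81), which was called (limma, adjusted p = 0.00740). An exact permutation test gave p = 0.1 (2-sided), the smallest value that 3 against 3 arrays allow. Without replicate 3 of 1G11-SOD3 the difference was 4.29 and no longer called (limma, adjusted p = 0.0507), and it was called without each of the other 5 arrays. In the middle, 33 probes had a larger difference.

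*Sod2*, the mitochondrial dismutase, was also measured in the middle. It read 12.52, 9.09 and 10.67 on the 1G11-mock arrays and 15.55, 14.27 and 15.20 on the 1G11-SOD3 arrays. The lines did not overlap, and here it was replicate 2 of 1G11-mock that was lowest. The means were 10.76 ± 1.72 and 15.00 ± 0.66 (SD, n = 3 each), a difference of 4.25 (19.0-fold, SE 0.67, 95% confidence interval 2.79 to 5.70), which was called (limma, adjusted p = 0.00576, exact permutation p = 0.1). The gap was present before any normalization, in intensities that include the dimness of the middle on the 1G11-mock arrays. The mean intensity of the *Sod2* spot was 5590, 601 and 1470 in 1G11-mock and 57300, 22700 and 49200 in 1G11-SOD3, and that of the *Sod3* spot was 11600, 5040 and 955 in 1G11-mock and 103000, 96100 and 102000 in 1G11-SOD3. Both spots were well above background on all 6 arrays. Both members in the middle were therefore called, as were 12.1% of all 6435 probes of the middle. No overlap with 1G11-SOD3 above was found for 27.2% of the probes there.

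**Figure D1:**
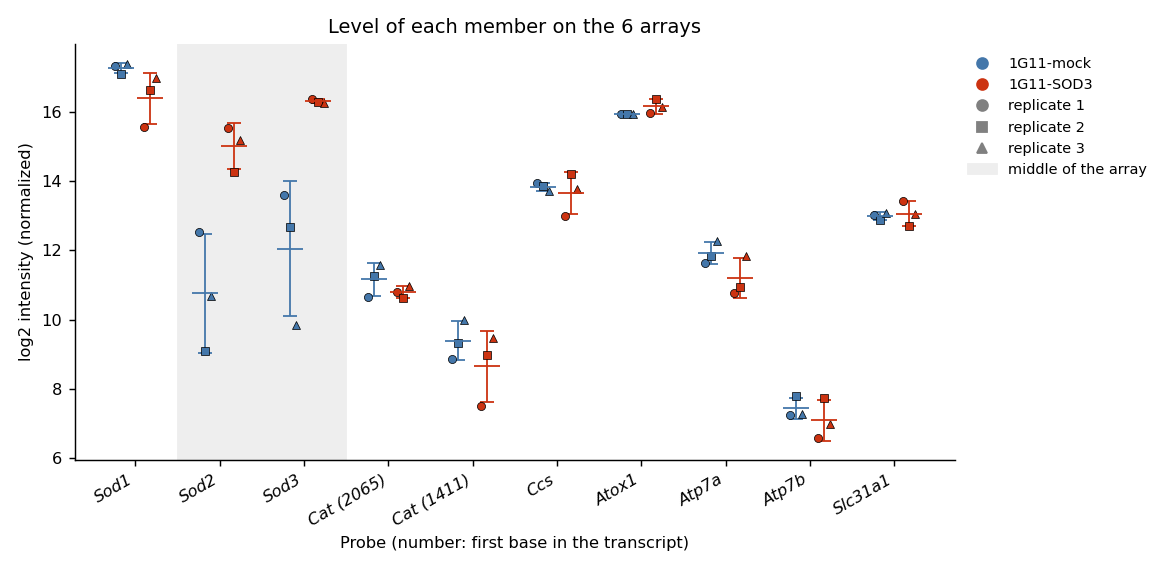
Normalized log2 intensity of each of the 10 member probes (x axis) on the 3 1G11-mock and 3 1G11-SOD3 arrays (points, by replicate), with the mean and SD of each line (bars). Gray shading marks the 2 probes in the middle of the array. *Sod2* and *Sod3* were the members with a wide gap between the lines, and their 1G11-mock values spread the most.

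**Figure D2:**
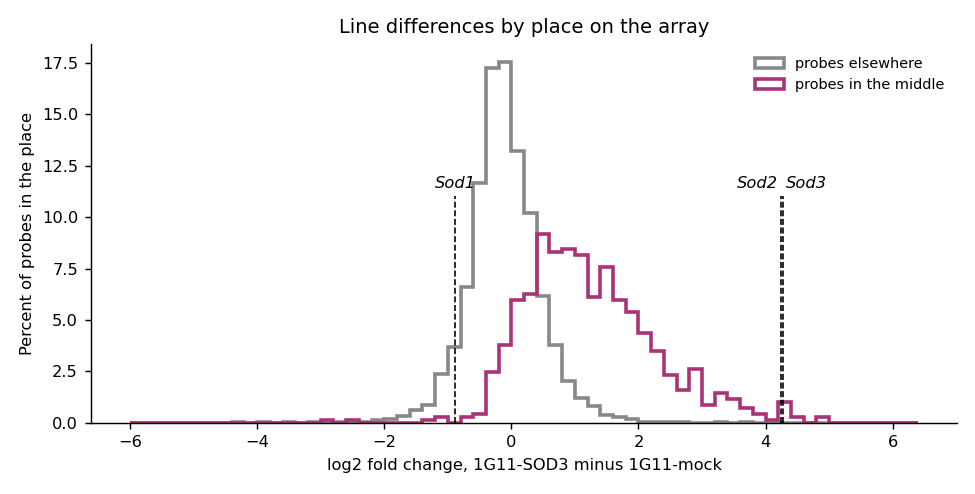
Distribution of the log2 difference between the lines over probes well above background (y axis, percent of the probes of that place, from a random sample), for probes in the middle of the array and elsewhere. Dashed lines give *Sod1* (-0.88, elsewhere), *Sod2* (4.25, middle) and *Sod3* (4.27, middle). The middle is shifted upward to a median of 1.10 (0.19 over all its probes, dim ones included), and *Sod2* and *Sod3* lie in its upper tail.

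To set each spot against its surroundings, it was compared with the spots that lie within 12 rows and 6 columns of it and were well above background on at least 3 arrays. In the middle such neighbors could pass on the 1G11-SOD3 arrays alone, which can raise their median difference. Around *Sod3* there were 119 such neighbors, with a median difference of 1.66 (quartiles 1.16 and 2.27), and 1 of them exceeded *Sod3*. Around *Sod2* there were 105, with a median of 2.88 (quartiles 1.86 and 4.02), and 20 of them exceeded *Sod2*. *Sod3* thus stood 2.60 above the median of its neighbors and *Sod2* 1.37 above its own, although the differences of both genes were almost equal.

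The same was seen array by array. The neighbors of *Sod3* deviated from their 6-array mean by a median of -0.24, -0.57 and -1.74 in 1G11-mock and 0.90, 0.62 and 0.95 in 1G11-SOD3, and the neighbors of *Sod2* by -0.33, -2.20 and -1.75 and by 1.68, 0.81 and 1.80. The array on which each gene read lowest, replicate 3 of 1G11-mock for *Sod3* and replicate 2 for *Sod2*, was therefore also the dimmest array among its neighbors. What remained of *Sod3* after taking off the deviation of its neighbors was -0.33, -0.95 and -2.58 in 1G11-mock and 1.30, 1.50 and 1.13 in 1G11-SOD3. For *Sod2* it was -0.03, -1.60 and -0.46 and 0.99, 0.57 and 0.52. On this scale the nearest arrays of the lines were closer for *Sod2* than for *Sod3*.

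**Figure D3:**
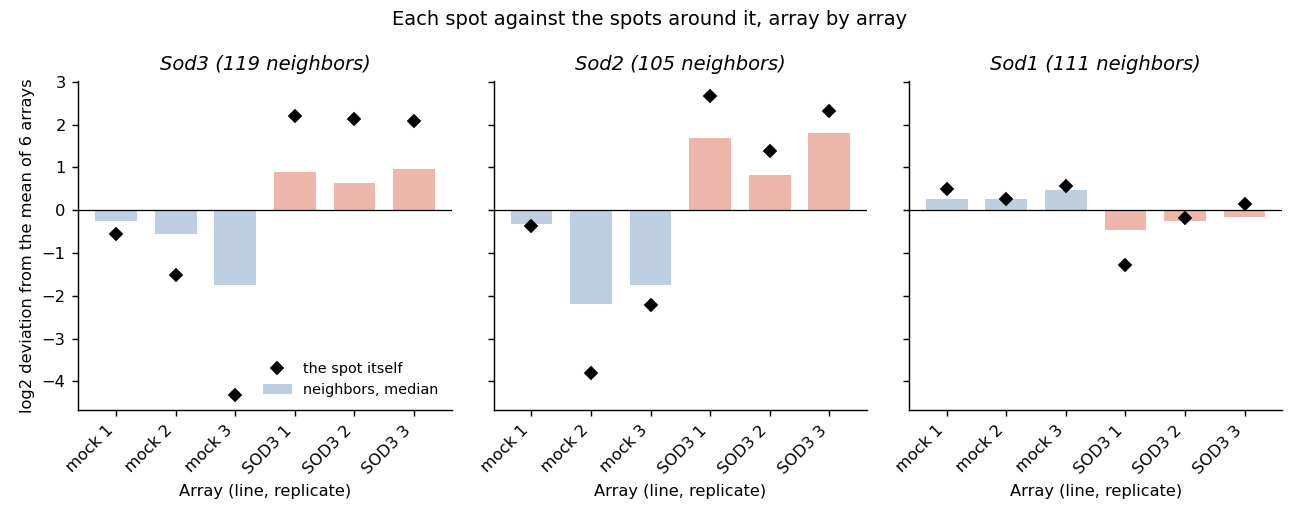
Deviation of a spot from its own mean over the 6 arrays (diamonds) and the median deviation of its neighboring spots (bars), in log2 units, for *Sod3*, *Sod2* and *Sod1* on each array. The neighbors of *Sod3* and *Sod2* were low on all 1G11-mock and high on all 1G11-SOD3 arrays, and both genes lay farther out than their neighbors. The neighbors of *Sod1* moved the other way.

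When a smooth surface of such deviations was taken off every array before normalization, *Sod3* kept its call and *Sod2* did not. The 95% confidence intervals of the 2 genes overlapped, and the genes were not tested against each other. *Sod3* then read 13.81, 13.17 and 11.42 in 1G11-mock and 15.51, 15.78 and 15.30 in 1G11-SOD3, a difference of 2.73 (6.64-fold, SE 0.50, 95% confidence interval 1.61 to 3.86) that was still called (limma, adjusted p = 0.0176). *Sod2* read 12.86, 11.31 and 12.42 and 13.85, 13.54 and 13.31, a difference of 1.37 (2.59-fold, SE 0.37, 95% confidence interval 0.55 to 2.19) that was not called (limma, adjusted p = 0.0711). The lines did not overlap in either gene, as in 9.07% of the probes of the middle on this scale. The surface also turned the calls in the middle from 774 higher and 4 lower to 126 higher and 1085 lower. It comes from bright spots and was taken off dim ones too. The size of both differences depended on how the place was handled, by 1.53 on the log2 scale for *Sod3* and by 2.88 for *Sod2*.

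The remaining members, the other 7 genes, were measured by 8 spots elsewhere on the array. None of the 8 was called by limma, where 1.86% of the 49526 probes elsewhere were called in either direction. An unadjusted p under 0.05 was found for 2 of the 8 (*Sod1* and *Atp7a*) and for 12.7% of all probes elsewhere. Of the 7 spots that were above background on some array, 5 had a lower mean in 1G11-SOD3, as did 56.1% of all probes elsewhere. That share includes dim probes. Probes elsewhere that were well above background on at least 3 arrays had a median difference of -0.14, against -0.06 over all. The 95% confidence interval stayed within a 2-fold change for 4 of the 7 spots (*Ccs*, *Atox1*, *Slc31a1* and a *Cat* probe) and reached past it for the other 3 (*Sod1*, *Atp7a* and the coding *Cat* probe).

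*Sod1*, the cytosolic dismutase, read 17.32, 17.10 and 17.38 in 1G11-mock and 15.55, 16.63 and 16.97 in 1G11-SOD3. All 1G11-mock arrays were above all 1G11-SOD3 arrays, by 0.12 at the nearest, which was the case for 11.4% of the probes elsewhere. In mean spot intensity before normalization the lines overlapped (148000, 111000 and 140000 in 1G11-mock and 57400, 123000 and 164000 in 1G11-SOD3). The means were 17.27 ± 0.15 and 16.39 ± 0.74 (SD, n = 3 each), a difference of -0.88 (SE 0.33, 95% confidence interval -1.61 to -0.15, limma, unadjusted p = 0.0225, adjusted p = 0.236, exact permutation p = 0.1). The 111 neighbors of the *Sod1* spot had a median difference of -0.60, and 35 of them were lower than *Sod1*. Without replicate 1 of 1G11-SOD3 the difference was -0.46 (limma, adjusted p = 0.623). With the surface taken off, the lines overlapped and the difference was -0.32 (limma, adjusted p = 0.579).

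Catalase, which degrades hydrogen peroxide in peroxisomes, had 2 probes. The probe from base 2065 of the transcript read 10.65, 11.25 and 11.57 in 1G11-mock and 10.80, 10.62 and 10.96 in 1G11-SOD3, and the coding probe read 8.86, 9.33 and 9.98 and 7.51, 8.98 and 9.48. The lines overlapped at both probes, and replicate 1 of 1G11-SOD3 was the lowest array at the coding probe, where 2 of the 3 1G11-SOD3 arrays were well above background. The differences were -0.37 (SE 0.27, 95% confidence interval -0.96 to 0.22, limma, adjusted p = 0.597) and -0.74 (SE 0.45, 95% confidence interval -1.73 to 0.26, limma, adjusted p = 0.511). Leaving out single arrays changed the size of both. The first was -0.16 without replicate 3 and -0.62 without replicate 1 of 1G11-mock, and the coding probe was -0.16 without replicate 1 of 1G11-SOD3, -0.44 without replicate 3 of 1G11-mock and -1.15 without replicate 3 of 1G11-SOD3.

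The chaperones showed no called difference. *Ccs*, which inserts copper into SOD1, read 13.95, 13.85 and 13.71 in 1G11-mock and 13.00, 14.21 and 13.76 in 1G11-SOD3, so that the 1G11-SOD3 arrays lay on both sides of the 1G11-mock arrays (difference -0.18, SE 0.30, 95% confidence interval -0.83 to 0.47, limma, adjusted p = 0.839). Its sign changed when replicate 1 of 1G11-SOD3 was left out (0.15). *Atox1*, the chaperone of the Golgi pumps, read 15.94, 15.93 and 15.95 in 1G11-mock and 15.97, 16.38 and 16.13 in 1G11-SOD3. These values did not overlap, as in 8.24% of the probes elsewhere, but were only 0.02 apart at the nearest. The difference of 0.22 (SE 0.22, 95% confidence interval -0.26 to 0.70) did not pass the test (limma, adjusted p = 0.713) and was 0.11 without replicate 2 of 1G11-SOD3.

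The transporters did not pass the test either. *Atp7a*, the copper pump of most tissues outside the liver, read 11.65, 11.84 and 12.28 in 1G11-mock and 10.78, 10.95 and 11.85 in 1G11-SOD3. The lines overlapped through replicate 3 of 1G11-SOD3, and the difference was -0.73 (SE 0.31, 95% confidence interval -1.41 to -0.06, limma, unadjusted p = 0.0363, adjusted p = 0.300). *Atp7b*, the pump best known from the liver, was not well above background on any of the 6 arrays, so no fold change is given. *Slc31a1*, the importer, read 13.02, 12.87 and 13.09 in 1G11-mock and 13.42, 12.70 and 13.04 in 1G11-SOD3, with the 1G11-mock arrays inside the range of the others. Its difference was 0.06 (SE 0.25, 95% confidence interval -0.48 to 0.59, limma, adjusted p = 0.948), with a sign that changed when replicate 2 of 1G11-mock or replicate 1 of 1G11-SOD3 was left out.

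**Figure D4:**
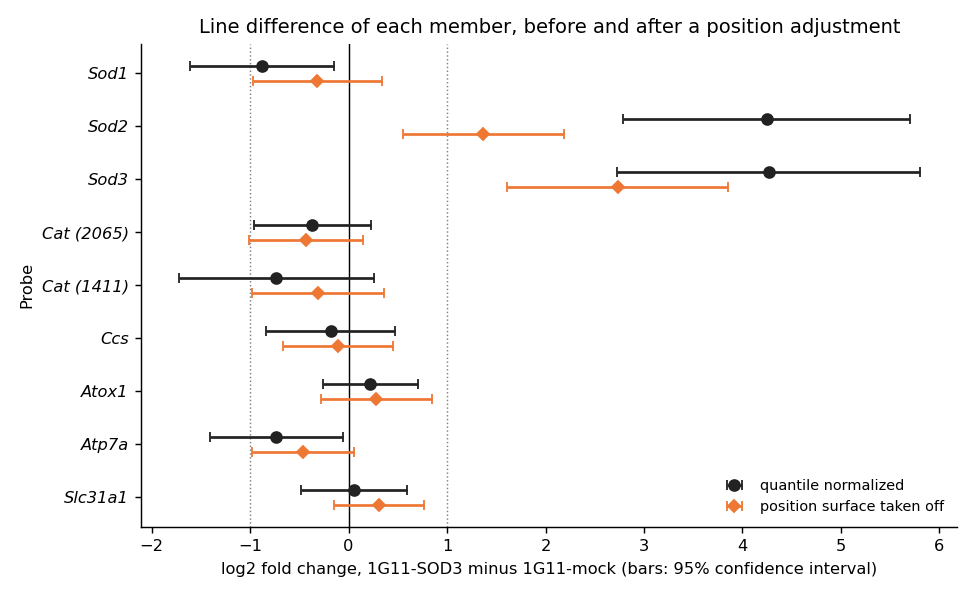
Log2 difference between the lines for each member probe with its 95% confidence interval, after quantile normalization (circles) and with the position surface taken off (diamonds). Dotted lines mark a 2-fold change, and *Atp7b* is not shown because it was not above background. *Sod2* fell from 4.25 to 1.37 and *Sod3* from 4.27 to 2.73, while the intervals of the other members included 0 in the second fit.

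Other genes that handle copper, remove peroxide or regulate the members were examined as lists. Of 18 copper genes, all measured elsewhere, none was called higher and 1 was called lower, where 1.20% of the probes elsewhere were called lower. It was *Cp*, which encodes ceruloplasmin, the copper-binding ferroxidase of plasma. It had means of 14.10 in 1G11-mock and 13.04 in 1G11-SOD3 (difference -1.06, SE 0.24, limma, adjusted p = 0.0404), and it was called under 8 of 14 alternatives and in 1 of the 6 fits that left out an array, the one without replicate 1 of 1G11-mock. A dimmer *Cp* probe had a difference of -1.01 that was not called (limma, adjusted p = 0.0552). It was called under 6 of the alternatives and without replicate 3 of 1G11-mock, so that one or both probes were called under 10 of the 14. With the surface taken off the brighter probe was at -0.75. The median difference of the list was -0.16, against -0.06 over all probes elsewhere and -0.14 over those well above background on at least 3 arrays. With the replicate number as a block 2 copper genes were called, *Cp* and *Steap3*, a metalloreductase (1.01, limma, adjusted p = 0.0279). *Slc25a3* of this list also had a probe in the middle, which was not called in the main fit (1.29, limma, adjusted p = 0.219). Its brightest probe elsewhere was at -0.34.

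Of 17 genes for peroxiredoxins, glutathione peroxidases, thioredoxins and their reductases, 16 were measured elsewhere and none was called there by limma. Their median difference was 0.22, against -0.06 over all probes elsewhere and -0.14 over those well above background on at least 3 arrays. The remaining gene, *Gpx7*, was read only in the middle and was not well above background on any array. *Prdx6*, a peroxiredoxin that also reduces phospholipid hydroperoxides, had probes in both places and was called in the middle. Its probe in the middle had means of 8.64 and 13.21 (difference 4.57, SE 0.46, limma, adjusted p = 0.000447) and was well above background on 1 of the 3 1G11-mock arrays. Its brightest probe elsewhere, well above background on all 6 arrays, had means of 14.06 and 14.53 (difference 0.47, SE 0.27, limma, adjusted p = 0.468). The 2 probes of this 1 gene therefore gave different calls. With the surface taken off, the probe in the middle was 1.71 and still called (limma, adjusted p = 0.00332). Blocking by replicate number added *Prdx4*, the peroxiredoxin of the endoplasmic reticulum (1.17, limma, adjusted p = 0.0285).

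None of the 10 regulators was called by limma. The 8 measured elsewhere had a median difference of -0.25. Over all probes elsewhere the median was -0.06, and it was -0.14 over those well above background on at least 3 arrays. Of the 8 regulators, 7 were below 0, as were 56.1% of all probes elsewhere, dim ones included. *Nfe2l2*, which encodes the antioxidant regulator NRF2, was at -1.11 (limma, adjusted p = 0.0598). It was called with the surface taken off (-1.03, limma, adjusted p = 0.0391) and with dim probes left out (limma, adjusted p = 0.0445). In the middle, *Keap1*, the inhibitor of NRF2, was at 1.30 (limma, adjusted p = 0.159) and the general activator *Sp1* at 2.25 (limma, adjusted p = 0.0990). With the replicate block 2 regulators were called, *Sp1* (limma, adjusted p = 0.0417) and *Hif1a*, the oxygen-regulated factor (-1.27, limma, adjusted p = 0.00997). *Steap3*, *Slc25a3*, *Prdx4*, *Gpx7*, *Nfe2l2*, *Keap1*, *Sp1* and *Hif1a* were named after their values were seen.

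The probes whose values followed *Sod3* most closely over the 6 arrays were sought among the 12301 well above background on all of them. They were *Pgp* (Pearson r = 0.997), *Dnajc9* (0.997), *Rpp21* (0.996), *Prpf3* (0.995) and *Nup85* (0.995). Of these 5, 4 are in the middle and the spot of *Prpf3* lies in column 54, next to it. Their differences ran from 0.75 (*Prpf3*) to 3.43 (*Rpp21*), all smaller than that of *Sod3*. The 6 arrays share the line difference and the dim region, so these values describe the pattern alone.

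Markers of endothelial and other cells were read on the same arrays. Of 10 endothelial markers, 4 (*Eng*, *Kdr*, *Esam* and *Mcam*) were well above background on all 6 arrays and 4 (*Cdh5*, *Emcn*, *Tek* and *Tie1*) on none, *Cdh5* being the gene for VE-cadherin. Their summed level ran from 14.33 to 14.82 on the 1G11-mock arrays and from 13.79 to 14.09 on the others. None of the 10 was called by limma. *Eng*, the brightest of them at probes elsewhere, was at -1.05 (limma, adjusted p = 0.0830) and *Kdr* at -0.51. *Pecam1* was at -0.51 (limma, adjusted p = 0.445) and was well above background on 2 of the 3 arrays of each line. *Mcam* was at -0.31 at a probe in the middle, and its probe elsewhere was not well above background on any array. *Esam*, also in the middle, was at 1.22 (limma, adjusted p = 0.185). Of 6 fibroblast and smooth muscle markers, 4 were called higher in 1G11-SOD3 at probes elsewhere, namely *Acta2* (2.62), *Col1a1* (from 11.32 to 14.42), *Tagln* (1.45) and *Pdgfrb* (2.40, but well above background on only 1 of the 3 1G11-mock arrays). Of all 49526 probes elsewhere, 327 were called higher. *Dcn* was at 0.29 (limma, adjusted p = 0.905) and *Des* was not above background. Their summed level ran from 14.35 to 15.09 on the 1G11-mock arrays and from 15.36 to 17.40 on the 1G11-SOD3 arrays. The epithelial list overlapped between the lines (16.04 to 16.77 and 15.44 to 16.36). *Krt19* was well above background on all 6 arrays, *Cdh1* on the 3 1G11-SOD3 arrays alone, *Krt8* on 1 of these and *Epcam*, *Cldn4* and *Krt18* on none. *Cdh1* was dim in both lines, and its difference was not called elsewhere (0.30, limma, adjusted p = 0.606) or in the middle (0.33, limma, adjusted p = 0.558). The leukocyte list was slightly lower in 1G11-SOD3 (11.19 to 11.53 and 10.95 to 11.18), with *Cd3e* well above background on all 6 arrays and the other 4, *Ptprc* among them, on none. The part of these markers in the differences of the members was not tested, and in bulk RNA fewer cells of a type and less RNA per cell cannot be told apart.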

How the data were processed

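Per the labels and the paper's methods, total RNA was amplified, labeled with Cy3 and hybridized to Agilent arrays. The authors deposited, for each array, Agilent Feature Extraction 10.7.3.1 output with spot and local background intensity, not normalized, as well as log2 values already corrected by normexp (offset of 50) and quantile normalized. Recomputing that table from the scanner output gave each value to within 0.005. It served as an alternative.

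The mean spot intensity was corrected with normexp (offset of 50) against the local background median, log2 transformed and quantile normalized without control spots (limma 3.58.1, R 4.3.3). Outlier spots were left out after the normalization. Copies of a probe in the middle of the array were averaged apart from copies elsewhere. The test was limma (lmFit and eBayes), with p-values adjusted after Benjamini and Hochberg over the whole array. The number of arrays, 3 per line, limits the precision. The procedure was also run on simulated data with independent noise for each probe and no dim region. That run cannot test the calls in the middle.

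Symbols came from the array descriptions, or through RefSeq accessions and a RefSeq gene table (GRCm38.p6), for 29535 of 55971 probes counted by place. A listed gene was represented by its brightest probe in each place. Named were all members, every called gene of the lists and the 5 probes that correlated best with *Sod3*. The members and lists were chosen with earlier results of these data known.

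Same-numbered arrays deviated together (r of 0.16, 0.16 and 0.24 for replicates 1, 2 and 3 over 18469 probes). The numbers were taken from the labels, which do not say what they share, and they coincide with the slide column. The alternatives were another background correction, offset, spot statistic, scaling, filter and handling of copies, the middle left out, a running median surface by place, the deposited table, a variance trend, the replicate block and each array left out. Figures were drawn with matplotlib 3.10.9.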

Additional observations from a re-analysis of the deposited data

How the results depend on the processing

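No member elsewhere was called under any of 14 alternatives or without any 1 array. *Sod3* was called under 13 of 13 alternatives (2.73 to 4.44, limma adjusted p 5.15e-07 to 0.0353) and ran from 3.17 to 5.05 when an array was left out. *Sod2* was called under 12 of 13 and without any 1 array (3.41 to 5.13). The members called in the middle were 1 with the position surface, and 1 to 2 when an array was left out. Leaving out 1 array gave -0.45 to 0.15 for *Ccs* and -0.13 to 0.23 for *Slc31a1*. The sign turned for *Ccs* (0.023) with the processed signal, for *Ccs* (0.15) and *Slc31a1* (-0.13) without replicate 1 of 1G11-SOD3 and for *Slc31a1* (-0.0044) without replicate 2 of 1G11-mock. *Atp7b*, for which no difference is given as it was not above background, was at 0.0078 with the processed signal. It has no value with dim probes left out, and the middle has none when left out.

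Listed genes are counted here by their brightest probe in each place. Over all probes, 327 were called higher and 592 lower elsewhere, and 774 higher and 4 lower in the middle. Without background correction 466 were higher in the middle. An offset of 16 gave 381 lower elsewhere and 0 copper genes, and a variance trend 0 copper genes. The processed signal, with a median of -0.52 over all probes, gave 677 higher and 7244 lower elsewhere, 2763 lower in the middle, 0 copper genes (2 if any probe counts, *Cp* and *Steap2*) and 3 peroxide genes, and scaling to the 75th percentile (median -0.34) gave 1032 lower elsewhere, 19 lower in the middle, 2 peroxide genes and 2 regulators. With scaling to the 75th percentile the 1 copper gene counted was *Slc25a3*, higher at its probe in the middle (1.41, limma, adjusted p = 0.0344). Of all calls, 64.9% were higher, against 1235 of 11242 with the processed signal, 29.0% with the surface and 53.6% without the middle. Leaving out dim probes gave 1 regulator, *Nfe2l2*. Without the middle there were 356 lower and 0 copper and 0 peroxide genes. The surface, which comes from bright spots but is also taken off dim ones, gave 388 lower elsewhere, 126 higher and 1085 lower in the middle, 0 copper genes and 1 regulator, again *Nfe2l2*. The cause of these changes was not tested.

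The replicate block changed no member's call (*Sod3* adjusted p = 0.00123, *Sod2* 0.000118, limma). It gave 7 lower in the middle, 2 copper genes, 2 peroxide genes and 2 regulators. Leaving out 1 array gave 155 to 333 higher and 288 to 513 lower elsewhere, 309 to 1007 higher and 3 to 8 lower in the middle, 0 to 1 copper genes, 1 to 2 peroxide genes and 0 to 1 regulators. The higher calls in the middle fell by more than 1.5 times without replicate 2 of 1G11-mock (417), replicate 1 of 1G11-SOD3 (354) or replicate 3 of 1G11-SOD3 (309), and those elsewhere without replicate 2 of 1G11-mock (162) or replicates 1, 2 or 3 of 1G11-SOD3 (155, 169 and 214).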
